A study of Mus musculus with 4 samples.

Results

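The 48 genes described here encode the proteins that drive a cell through mitosis: the cyclins and kinases of mitotic entry, the spindle checkpoint, the chromosomal passenger complex, the kinetochore, spindle motors, the cytokinesis machinery, the chromosome surface and the condensins. They were picked by gene symbol for their known roles, and all 48 were found among the 17393 genes of the deposited table. RNA had been sequenced from 2 libraries of Wdr26-/- cells (Wdr26 knockout) and 2 libraries of wild-type cells, all of the DS19 line of mouse erythroleukemia (MEL) cells, a transformed erythroid precursor line that can be induced to mature toward red cells. Each genotype has a library 1 and a library 2. The growth description shared by both genotypes names dimethyl sulfoxide at 1.5% as the inducer, and does not state if it was added before RNA was taken. The sources used here do not state if the knockout line is 1 clone or if libraries of the same genotype are separate cultures. The spread that p-values rest on may therefore be purely technical. Expression is given in FPKM, fragments scaled to transcript length and sequencing depth.

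In a dividing cell, cyclin B with the kinase Cdk1 starts mitosis, the kinetochores attach chromosomes to the spindle, and the checkpoint holds back anaphase until every chromosome is attached. The anaphase-promoting complex then destroys cyclin B and securin, and the central spindle and a contractile ring divide the cell. Most of these genes are transcribed late in the cell cycle, through promoter elements read by the MuvB complexes (DREAM in resting cells, B-Myb and Foxm1 in cycling cells) and by NF-Y. Erythroid precursors divide several times while they mature and leave the cell cycle before enucleation.

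Promoter letters that belong to this regulation were searched on both strands in RefSeq promoter windows (assembly GRCm38.p6), which run from 250 bases before to 50 bases after a start site. TTTGAA and TTCGAA are the letters of the cell cycle homology region, the element bound by MuvB, and CCAAT is the box bound by NF-Y. The windows table held 41 of the 48 genes, with 44 windows. Homology region letters stood in 35 of the 44 windows (79.5%), against 13.6% of the 10541 windows of genes tested for expression and 19.2% of all 32851 windows. CCAAT stood in 30 of the 44 windows (68.2%), against 38.5% of the windows of tested genes, and both kinds together in 28 windows (63.6%), against 5.76%. The homology region letters lay mostly near the start site: 47.7% of the windows had a match starting within the 50 bases after the start and 22.7% within the 50 bases before it, where 1.72% and 1.86% of the windows of tested genes had one. CCAAT matches were most frequent in the 50 bases before the start (43.2%, against 11.9% of the windows of tested genes). A match of letters is a description and not a binding site.

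**Figure D1:**
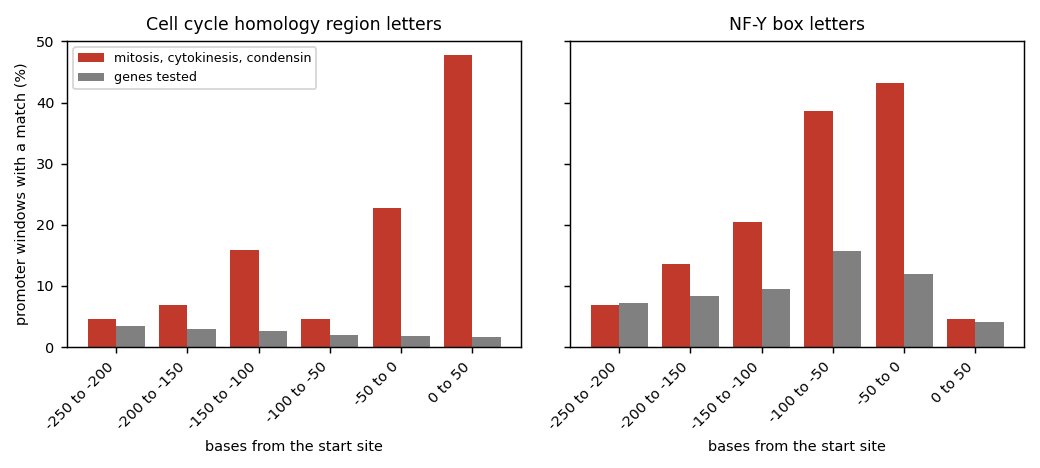
Share of promoter windows (%, linear axis) with a match starting in each bin of 50 bases relative to the start site, for the 44 windows of mitosis, cytokinesis and condensin genes (red) and the 10541 windows of genes tested (grey). The homology region letters of the mitotic genes gather after the start site (47.7%) and the NF-Y box letters before it (43.2%).

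The 4 most abundant of the genes whose window held both kinds of letters are shown to place the matches, the first 280 bases of the window each, 5′ to 3′ on the strand of the gene. Capitals mark the letters found, on either strand, so that the box appears as CCAAT or ATTGG and the homology region as TTTGAA (or TTCGAA, which reads the same on both strands), and as TTCAAA where it lies on the other strand. They are Cenpa (chr5:30666636-30666915, plus strand), Cdc25b (chr2:131186698-131186977, plus strand), Mki67 (chr7:135716350-135716629, minus strand) and Top2a (chr11:99024160-99024439, minus strand).
Cenpa: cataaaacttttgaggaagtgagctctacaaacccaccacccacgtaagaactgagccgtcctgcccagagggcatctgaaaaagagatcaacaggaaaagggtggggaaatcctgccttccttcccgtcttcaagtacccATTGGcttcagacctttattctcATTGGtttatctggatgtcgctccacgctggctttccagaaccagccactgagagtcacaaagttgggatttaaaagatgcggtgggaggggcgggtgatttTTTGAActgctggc
Cdc25b: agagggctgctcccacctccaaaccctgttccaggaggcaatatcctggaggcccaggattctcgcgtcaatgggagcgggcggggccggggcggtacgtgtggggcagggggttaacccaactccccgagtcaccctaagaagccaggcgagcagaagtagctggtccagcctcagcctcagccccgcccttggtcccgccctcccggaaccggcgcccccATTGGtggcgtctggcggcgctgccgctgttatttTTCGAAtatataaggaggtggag
Mki67: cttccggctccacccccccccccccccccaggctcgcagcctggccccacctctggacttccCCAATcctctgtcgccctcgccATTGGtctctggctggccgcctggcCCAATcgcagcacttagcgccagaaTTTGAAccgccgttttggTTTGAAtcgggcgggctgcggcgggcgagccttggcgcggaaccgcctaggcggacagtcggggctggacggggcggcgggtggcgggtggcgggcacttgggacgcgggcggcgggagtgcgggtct
Top2a: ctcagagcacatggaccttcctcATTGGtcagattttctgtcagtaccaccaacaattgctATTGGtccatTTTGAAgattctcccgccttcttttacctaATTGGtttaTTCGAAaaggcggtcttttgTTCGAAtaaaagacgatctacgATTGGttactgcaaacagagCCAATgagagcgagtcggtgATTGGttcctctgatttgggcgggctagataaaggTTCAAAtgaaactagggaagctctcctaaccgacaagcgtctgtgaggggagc
Cenpa and Cdc25b held 1 homology region match each, shortly after the start site, and 2 and 1 box matches before it. In Mki67 2 homology region matches followed 3 box matches, all of them before the start site. Top2a held 4 homology region matches and 6 box matches, interleaved and also all before the start site.

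The targeted gene was checked first. Wdr26, a subunit of the CTLH ubiquitin ligase, stood at 9 and 7.84 FPKM in the knockout libraries, against 55.4 and 52.4 FPKM in the wild-type libraries (log2 change −2.55, SE 0.14, limma adjusted p = 0.00630), in the direction of the labels. This call was lost without the filter on low values (limma adjusted p = 0.0675). Erythroid markers were above 1 FPKM in all libraries for 10 of 10 genes, with a summed level of 153722 to 179299.9 FPKM in knockout and 169090.1 to 207928 FPKM in wild type, most of it from the globin gene Hba-a1. Of 7 megakaryocyte markers 5 were also above 1 FPKM throughout, and their summed level was 279.8 to 290.3 FPKM in knockout and 253 to 308 FPKM in wild type. Myeloid, lymphoid, fibroblast and endothelial markers reached 1 FPKM in every library for 0 genes, with summed levels per list of at most 2.40 FPKM in knockout and 1.04 FPKM in wild type. Elane, Cd3e, Cd79b and Cdh5 were listed at 0 in every library. Each library had between 10416 and 10603 genes at 1 FPKM or more.

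Most of the mitotic genes had slightly lower means in the knockout, and no single gene passed the test. On the log2(FPKM + 1) scale 43 of the 48 genes had a lower and 5 a higher mean in the knockout (46 and 2 with median-centred values), with changes between −0.45 and 0.39. The median change was −0.16, against 0.067 over the 10670 genes tested, of which 37.6% were lower. Summed over the 48 genes, expression was 1442 and 1320.2 FPKM in knockout libraries 1 and 2, against 1529.8 and 1488 FPKM in wild-type libraries 1 and 2. Both knockout sums lay below both wild-type sums. Of the 10 erythroid markers 8 were also lower in mean. For 5 of them both knockout libraries lay below both wild-type libraries, where 10.8% of all genes did. The median log2 change of the 10 markers was −0.31. The most negative was Slc4a1, which encodes the anion exchanger band 3 of the red cell membrane, at 48.6 and 6.7 FPKM in knockout and 436 and 285 FPKM in wild type (log2 change −4.18, SE 0.80, limma adjusted p = 0.166), the lowest change of all genes tested. The other 9 markers ran from −0.80 for Ahsp, the chaperone of alpha globin, to 0.26 for Tal1, an erythroid transcription factor. The part of the cells' state of maturation in the mitotic values was not tested. In bulk RNA, fewer mitotic cells and less RNA per mitotic cell cannot be told apart.

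All 48 genes passed the filter on low values (at least 1 FPKM in at least 2 libraries). Of them 0 passed an adjusted p under 0.05 (limma on log2(FPKM + 1), Benjamini-Hochberg over all genes tested), where 0.0937% of all genes did (0.0469% lower), and the lowest adjusted p was 0.318. At an unadjusted p under 0.05 there were 2, Cenpf and Ccna2, both lower, where 11.4% of all genes stood in either direction and 2.4% on the lower side. In limma without a mean-variance trend the counts were also 0 and 2. For 16 of the 48 (33.3%) both knockout libraries lay below both wild-type libraries, where 10.8% of all genes did. For 2 of the 48 (4.17%), Ncapd3 and Racgap1, both knockout libraries lay above both wild-type libraries, where 29.9% of all genes did. With values centred on the median of each library the counts were 29 lower (background 20.1%) and 1 higher (background 19.9%). The count of 16 became 40 when knockout library 1 was left out, 18 for knockout library 2, 22 for wild-type library 1 and 34 for wild-type library 2, where 30.8%, 22.1%, 15.4% and 28.7% of all genes were lower. The median change became −0.28 when knockout library 1 was left out and −0.045 when it was knockout library 2, where the median of all genes was 0.10. Leaving out a single library also changes the balance of library numbers between the genotypes, and within a number the median was −0.15 for libraries 1 and −0.20 for libraries 2. With 2 libraries against 2, an exact permutation test of a single gene has a smallest two-sided p of 0.333, and none was run.

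**Figure D2:**
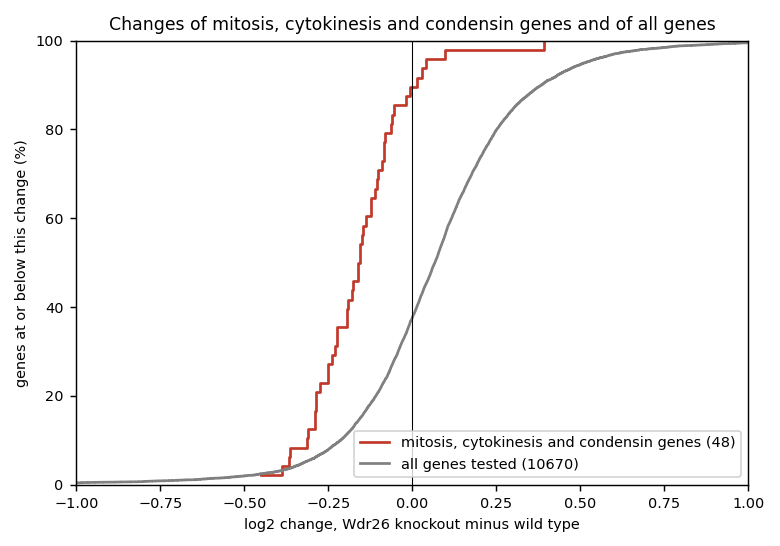
Cumulative share of genes (%) at or below each log2 change, knockout minus wild type, for the 48 mitosis, cytokinesis and condensin genes (red) and the 10670 genes tested (grey). The axis ends at 1 in both directions, which leaves out 91 of the genes tested. The red curve lies to the left of the grey one over most of its range, with a median of −0.16 for the 48 genes and 0.067 for all genes.

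**Figure D3:**
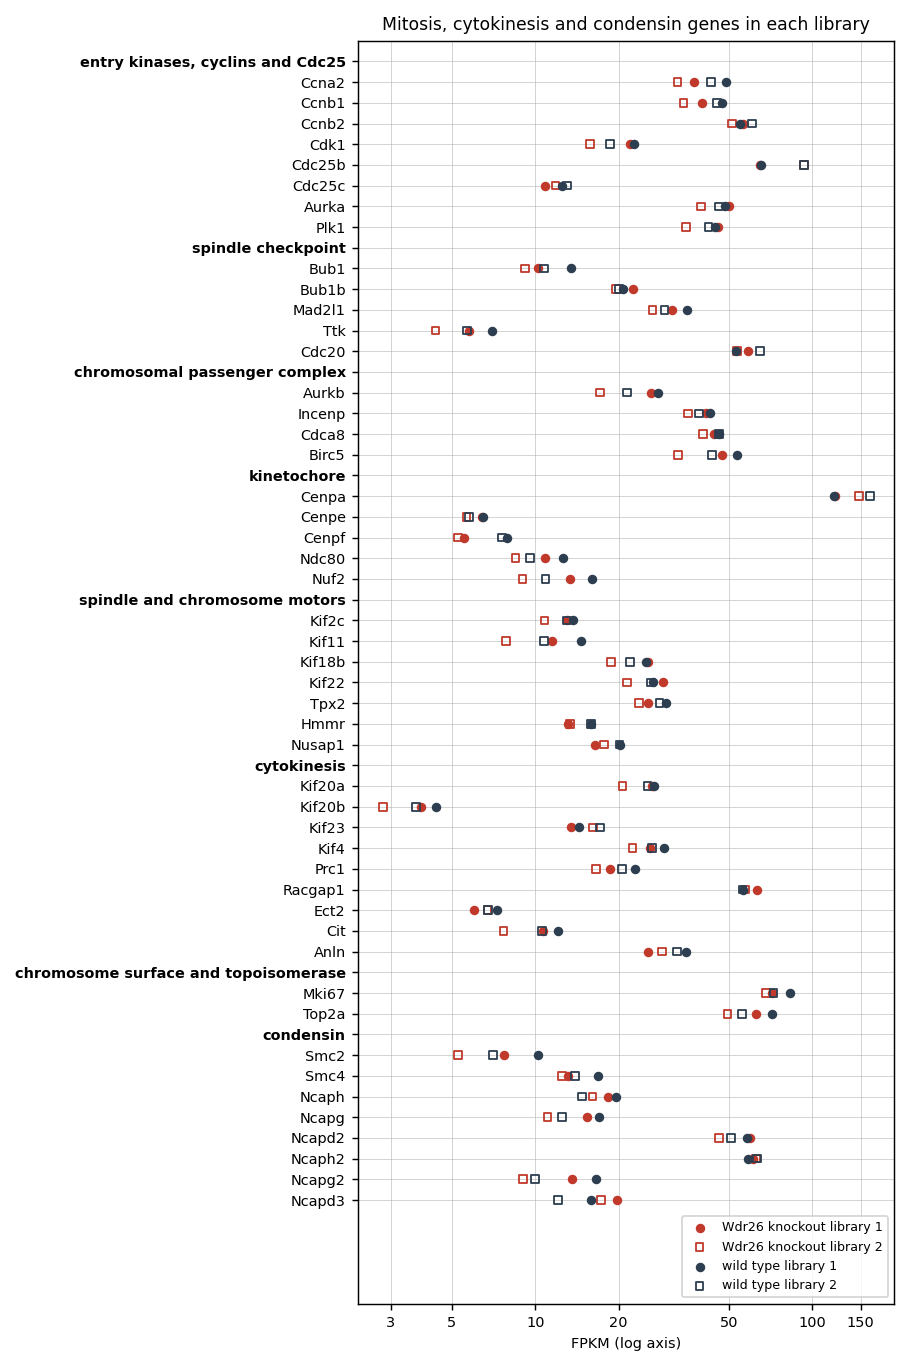
FPKM (log axis) of each of the 48 genes in the 2 knockout libraries (red) and the 2 wild-type libraries (dark), with filled circles for libraries numbered 1 and open squares for those numbered 2, ordered by role. Ccna2, Cenpf, Hmmr and Prc1 show both red marks left of both dark marks, and Ncapd3 shows the opposite order.

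The genes of mitotic entry were all lower on average in the knockout (8 of 8, median log2 change −0.13), 3 of them in both libraries. Over all genes tested 37.6% were lower in mean and 10.8% in both knockout libraries. The median difference of the 8 was −0.029 among libraries numbered 1 and −0.23 among those numbered 2. Within each library number 5 of the 8 were lower, where 22.2% of all genes were. Ccna2 encodes cyclin A2, which partners Cdk2 in S phase and Cdk1 in G2, and it stood at 37.4 and 32.6 FPKM in the knockout libraries, against 48.95 and 43.2 FPKM in the wild-type libraries. Both knockout libraries lay below both wild-type ones, at 76.0% of the wild-type mean (log2 change −0.39, SE 0.14, limma adjusted p = 0.395). The Ccna2 gene (chromosome 3, 36564865 to 36573038, mm10) overlaps Exosc9, and since strand is not given for the counting, reads of the pair may be shared. Ccnb1, which encodes the main mitotic cyclin, had 40.2 and 34.3 FPKM in knockout and 47.3 and 45.5 FPKM in wild type (log2 change −0.31, SE 0.14, limma adjusted p = 0.479), again without overlap. Ccnb2, another B-type cyclin, overlapped between genotypes, at 56.1 and 51.4 FPKM in knockout and 55.1 and 60.8 FPKM in wild type.

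Cdk1 itself, the kinase that these cyclins activate, had 21.9 and 15.8 FPKM in knockout and 22.7 and 18.6 FPKM in wild type. The genotypes overlapped, and in each of them library 2 was the lower one. Of the phosphatases that switch Cdk1 on, Cdc25c was lower in both knockout libraries (10.9 and 11.8 FPKM, against 12.4 and 13.03 FPKM in wild type; log2 change −0.15). Cdc25b, whose promoter is printed above, had 64.8 and 93.3 FPKM in knockout and 65.2 and 93.8 FPKM in wild type, the smallest difference between genotypes of the 48 genes (log2 change −0.0074, SE 0.24). Library 2 exceeded library 1 in each genotype, with a difference of library 1 minus library 2 of −0.52 in knockout and −0.52 in wild type on the log2 scale. The kinases Aurka, which builds spindle poles, and Plk1, which acts at centrosomes, kinetochores and the midzone, shared a pattern across libraries. Aurka stood at 49.9 and 39.8 FPKM in knockout and 48.4 and 46.03 FPKM in wild type, and Plk1 at 45.9 and 35.02 FPKM in knockout and 44.6 and 42.2 FPKM in wild type. For both, knockout library 2 was the lowest of the 4 libraries and the other 3 lay close together.

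Of the 5 spindle checkpoint genes 4 were lower on average, where 37.6% of all genes were. Of them 1, Bub1, was lower in both knockout libraries, where 10.8% of all genes were. Bub1 encodes a kinase that marks unattached kinetochores and had 10.2 and 9.19 FPKM in knockout, against 13.4 and 10.7 FPKM in wild type (log2 change −0.29, SE 0.16, limma adjusted p = 0.592). Ttk encodes Mps1, the kinase at the top of the checkpoint, and its values were 5.74 and 4.36 FPKM in knockout and 6.95 and 5.65 FPKM in wild type, where knockout library 1 lay just above wild-type library 2. Mad2l1, which encodes the Mad2 subunit of the complex that blocks anaphase, had 31.1 and 26.5 FPKM in knockout and 35.5 and 29.3 FPKM in wild type. Bub1b, which encodes BubR1 of the same complex, had 22.6 and 19.6 FPKM in knockout, on either side of the wild-type values of 20.8 and 20.03 FPKM (log2 change 0.041, and −0.036 with median-centred values). Cdc20, the target of the checkpoint and activator of the anaphase-promoting complex, had 58.5 and 53.7 FPKM in knockout and 53.05 and 64.9 FPKM in wild type, lower in the knockout among libraries numbered 2 and higher among those numbered 1.

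The chromosomal passenger complex corrects faulty attachments and later moves to the midzone. All 4 of its genes were lower in the knockout within each library number, where 22.2% of all genes were. The median differences were −0.069 among libraries numbered 1 and −0.24 among those numbered 2. Birc5, which encodes survivin, had 47.1 and 32.7 FPKM in knockout and 53.6 and 43.4 FPKM in wild type (log2 change −0.29, SE 0.21, limma adjusted p = 0.695). Aurkb, the kinase of the complex, had 26.2 and 17.1 FPKM in knockout and 27.6 and 21.4 FPKM in wild type. In both genes knockout library 2 was the lowest and wild-type library 1 the highest, with the remaining libraries crossing between genotypes. The scaffold gene Incenp (41.5 and 35.5 FPKM in knockout, 42.9 and 39.05 FPKM in wild type) and Cdca8, which encodes borealin (44.1 and 40.5 FPKM in knockout, 46.1 and 46.05 FPKM in wild type), differed less, and of the 4 genes only Cdca8 did not overlap.

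At the kinetochore 5 of 5 genes were lower in mean, where 37.6% of all genes were. Cenpf, which did not pass the test, had the most negative log2 change of all 48 genes. Cenpf (gene ID 108000, chromosome 1, 189640606 to 189688107, mm10) encodes a large microtubule-binding protein that accumulates in G2 and coats the outer kinetochore. It stood at 5.54 and 5.26 FPKM in the knockout libraries, against 7.89 and 7.58 FPKM in the wild-type libraries, so the gap between genotypes was several times the gap within either. The knockout mean was 69.8% of the wild-type mean (log2 change −0.45, SE 0.14, unadjusted p = 0.0170, limma adjusted p = 0.318). Among all genes tested this change lay at percentile 2.44. Cenpe, which encodes the kinetochore motor that carries chromosomes to the metaphase plate, was expressed at a similar level and had 6.41 and 5.64 FPKM in knockout and 6.48 and 5.75 FPKM in wild type (log2 change −0.019, SE 0.15).

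Ndc80 and Nuf2 encode the paired subunits that grip microtubules, and both had the same order of libraries. Ndc80 had 10.8 and 8.47 FPKM in knockout and 12.6 and 9.55 FPKM in wild type, and Nuf2 had 13.3 and 9 FPKM in knockout and 16.02 and 10.9 FPKM in wild type. Within each library number the difference of Nuf2, knockout minus wild type, was nearly the same (−0.25 and −0.25 on the log2 scale), while library 1 exceeded library 2 by more than that in each genotype (0.52 in knockout and 0.52 in wild type). Cenpa, the histone H3 variant that marks centromeres, was the most abundant of the 48 genes and behaved otherwise, at 121 and 148 FPKM in knockout and 120.3 and 162 FPKM in wild type. Library 2 was the higher one in each genotype, and the genotypes overlapped.

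Spindle assembly genes were lower on average in 7 of 7 cases (median log2 change −0.22), where 37.6% of all genes were. In both knockout libraries 4 of the 7 were lower, where 10.8% of all genes were. Hmmr, a spindle pole protein also known as the hyaluronan-mediated motility receptor, had 13.1 and 13.3 FPKM in knockout and 15.9 and 15.9 FPKM in wild type, with almost no spread within either genotype (log2 change −0.25, SE 0.13, limma adjusted p = 0.547). Tpx2, the activator of Aurora A on spindle microtubules, had 25.5 and 23.7 FPKM in knockout and 29.7 and 28.1 FPKM in wild type. Nusap1, which bundles microtubules around chromosomes, had 16.5 and 17.7 FPKM in knockout and 20.3 and 20.2 FPKM in wild type. These 3 genes share tight replicates and a difference of similar size, with knockout means between 83.1% and 85.1% of wild type.

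Kif11 encodes the motor that pushes spindle poles apart, and its mean in knockout was 76.3% of wild type, from 11.5 and 7.85 FPKM in knockout and 14.6 and 10.8 FPKM in wild type (log2 change −0.37, SE 0.22, limma adjusted p = 0.631). The groups overlapped, with knockout library 1 above wild-type library 2. Kif2c, a microtubule depolymerase at centromeres, had 12.97 and 10.8 FPKM in knockout and 13.7 and 13.01 FPKM in wild type, with almost no gap between knockout library 1 and wild-type library 2. The chromokinesin gene Kif22 (28.9 and 21.4 FPKM in knockout, 26.7 and 26.1 FPKM in wild type) and Kif18b, a regulator of astral microtubules (25.4 and 18.8 FPKM in knockout, 25.2 and 22.04 FPKM in wild type), resembled Aurka and Plk1. In each of them knockout library 2 was the lowest value and knockout library 1 the highest.

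The cytokinesis genes were lower on average in 8 of 9 cases (median log2 change −0.19), 4 of them in both knockout libraries. The shares over all genes were 37.6% and 10.8%. Anln encodes anillin, the scaffold of the contractile ring, and had 25.6 and 28.6 FPKM in knockout, against 35.1 and 32.5 FPKM in wild type (log2 change −0.31, SE 0.13, limma adjusted p = 0.474). Prc1, which bundles the antiparallel microtubules of the central spindle, had 18.6 and 16.6 FPKM in knockout and 22.9 and 20.5 FPKM in wild type (log2 change −0.29, SE 0.14, limma adjusted p = 0.523). Its motor partner Kif4 had 25.98 and 22.4 FPKM in knockout and 29.1 and 26.4 FPKM in wild type. All 3 were lower in both knockout libraries, as was Ect2, the activator of RhoA at the cleavage site, at 6.01 and 6.72 FPKM in knockout and 7.29 and 6.75 FPKM in wild type, where the gap between the nearest libraries of the genotypes was very small.

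Centralspindlin is built from the products of Kif23 and Racgap1. Racgap1 stood at 63.02 and 57.4 FPKM in the knockout libraries, against 56.2 and 56.1 FPKM in wild type, and was one of the 2 genes higher in both (log2 change 0.099, SE 0.13, limma adjusted p = 0.865). That change is close to the median of all genes tested (0.067) and lies at percentile 56.5 among them. With median-centred values it was 0.022, and the libraries then overlapped. Its partner Kif23 had 13.4 and 16.2 FPKM in knockout and 14.4 and 17.1 FPKM in wild type (log2 change −0.084, SE 0.16), with library 2 the higher one in each genotype. Cit, which encodes citron kinase of the midbody, had 10.7 and 7.68 FPKM in knockout and 12.04 and 10.6 FPKM in wild type. The abscission motor gene Kif20b (3.87 and 2.81 FPKM in knockout, 4.39 and 3.7 FPKM in wild type), the least abundant of the 48 genes, and Kif20a, which carries the passenger complex to the midzone (26.5 and 20.6 FPKM in knockout, 26.8 and 25.4 FPKM in wild type), both had their lowest value in knockout library 2.

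The proliferation marker gene Mki67, whose product coats mitotic chromosomes, had 71.95 and 68.1 FPKM in knockout and 83.03 and 72.6 FPKM in wild type and lay lower in both knockout libraries by a small margin (log2 change −0.15, SE 0.14, limma adjusted p = 0.780). Top2a, the topoisomerase that untangles sister chromatids, had 62.9 and 49.5 FPKM in knockout and 71.5 and 55.95 FPKM in wild type. Its values were ordered by library number within each genotype, and the genotypes overlapped.

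The condensins gave the widest range of any role, from −0.36 for Smc2 to 0.39 for Ncapd3, around a median of −0.10. Smc2 and Smc4 encode the pair of ATPases shared by condensin I and condensin II. Smc2 had 7.72 and 5.26 FPKM in knockout and 10.2 and 7.04 FPKM in wild type (log2 change −0.36, SE 0.24, limma adjusted p = 0.653), and Smc4 had 13.1 and 12.5 FPKM in knockout and 16.8 and 13.9 FPKM in wild type (log2 change −0.24, SE 0.15). Of the pair only Smc4 did not overlap between genotypes. For Smc2, library 1 minus library 2 was 0.48 in knockout and 0.48 in wild type on the log2 scale.

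The subunits particular to condensin I are encoded by Ncaph, Ncapg and Ncapd2, and none of these differed beyond the spread of its libraries. Ncaph, the kleisin, had 18.3 and 16.1 FPKM in knockout and 19.5 and 14.8 FPKM in wild type. Ncapg had 15.4 and 11.1 FPKM in knockout and 17.02 and 12.5 FPKM in wild type. Ncapd2 had 59.9 and 46.01 FPKM in knockout and 58.4 and 50.95 FPKM in wild type, and like Ncaph2 of condensin II was several-fold more abundant per length than its partners. Ncapd2 overlaps Mrpl51, and Ncaph2 overlaps Sco2 and Tymp, so reads may be shared with these genes.

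In condensin II, Ncapd3 stood apart. Ncapd3 (gene ID 78658, chromosome 9, 27030165 to 27096522, mm10) had 19.8 and 17.3 FPKM in the knockout libraries, against 15.9 and 12.1 FPKM in wild type, and was 1.33-fold higher in mean (log2 change 0.39, SE 0.17, unadjusted p = 0.0632, limma adjusted p = 0.478). It was the only one of the 48 genes to be higher in both knockout libraries with median-centred values too, and it lay at percentile 90.4 of all genes tested. Its partner Ncapg2 had 13.6 and 9.03 FPKM in knockout and 16.6 and 9.95 FPKM in wild type, and a difference of library 1 minus library 2 of 0.54 in knockout and 0.68 in wild type on the log2 scale, the largest in mean of the 48 genes. Ncaph2 had 61.4 and 62.8 FPKM in knockout and 58.5 and 63.3 FPKM in wild type.

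**Figure D4:**
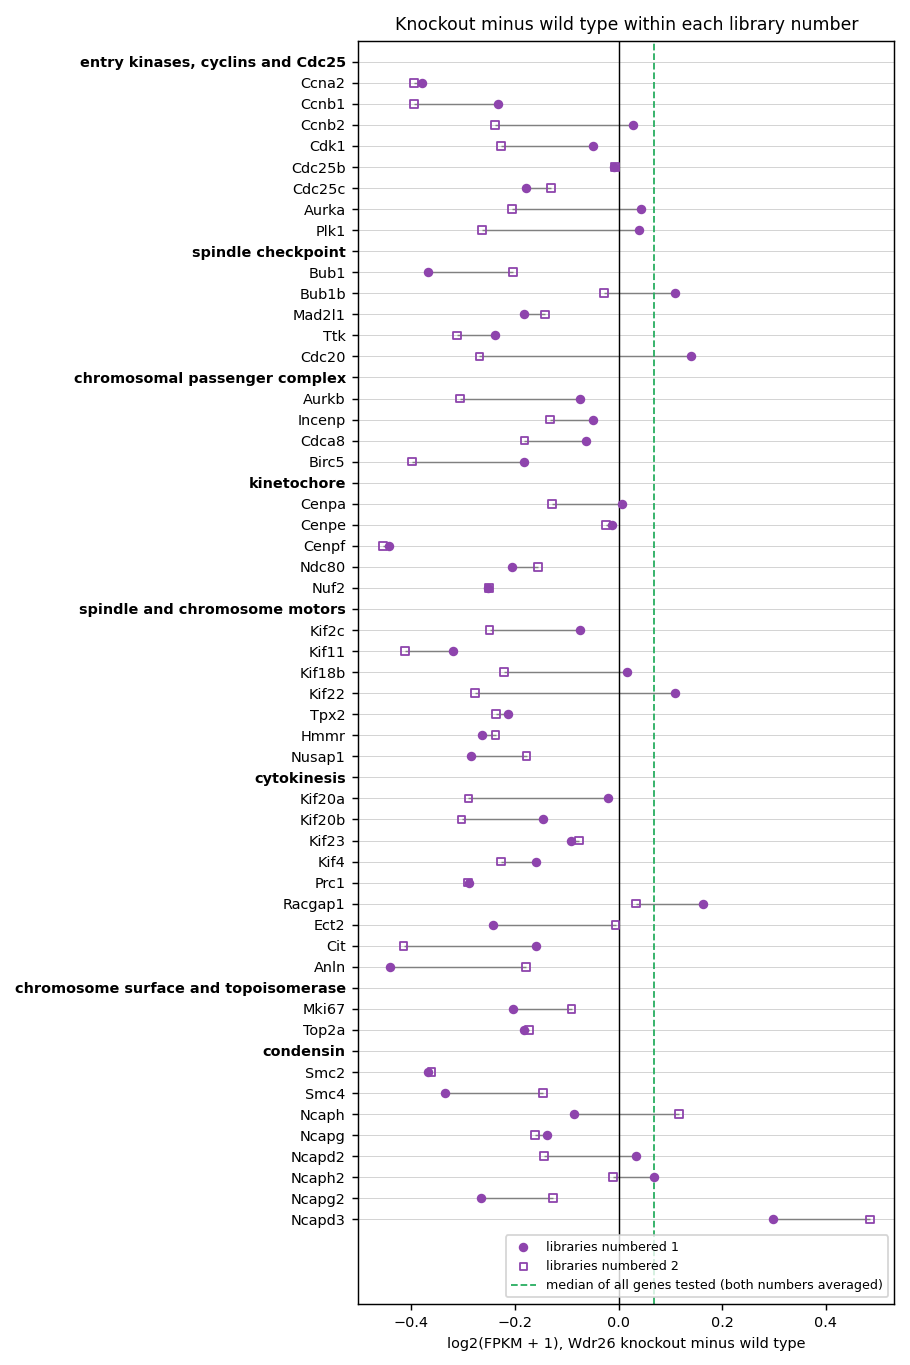
Difference in log2(FPKM + 1), knockout minus wild type, of each gene among the libraries numbered 1 (filled circles) and those numbered 2 (open squares), with the median change of all genes tested as a dashed line. For 35 of the 48 genes both marks lie left of 0, and for 2 of them, Racgap1 and Ncapd3, both lie right of it.

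The values of the 48 genes were also compared within each library number and within each genotype. Compared within a number, 35 of the 48 genes (72.9%) were lower in the knockout in both comparisons, where 22.2% of all genes tested were, and 2 (4.17%) were higher in both comparisons, where 45.1% were. The median difference of the 48 genes was −0.15 among libraries numbered 1 and −0.20 among libraries numbered 2, against medians of 0.052 and 0.091 over all genes. Compared within a genotype, 37 of the 48 (77.1%) had the lower value in library 2 in each genotype, where 46.5% of all genes were, and 5 (10.4%) were higher in library 2 in both, where 24% of all genes were. In 24 of the 48 genes both libraries numbered 2 lay below both libraries numbered 1 (33% of all genes), and in 4 both lay above (12.5% of all genes). For 29 of the 48 the difference by number was larger than that by genotype, where 52.7% of all genes were so. No test was made by library number, because nothing in the labels says what the number stands for.

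The 5 genes with library 2 the higher one in each genotype were Cdc25b, Cenpa, Kif23, Cdc25c and Ncaph2, with mean differences of library 1 minus library 2 between −0.52 and −0.073 on the log2 scale. At the other end stood Ncapg2, Nuf2 and Smc2, with 0.61, 0.52 and 0.48, and Aurkb and Kif11, with 0.47 and 0.45. In the checkpoint the range ran from −0.082 for Cdc20 to 0.29 for Ttk, in the passenger complex from 0.063 for Cdca8 to 0.47 for Aurkb, and in cytokinesis from −0.25 for Kif23 to 0.30 for Cit. Among entry genes it ran from −0.52 for Cdc25b to 0.36 for Cdk1, among spindle genes from −0.045 for Nusap1 to 0.45 for Kif11, and for the chromosome surface from 0.14 for Mki67 to 0.34 for Top2a. DNA replication genes, which mark S phase, differed more by number: 28 of 29 had the lower value in library 2 in each genotype, with a median difference of 0.72, against 0.18 for the 48 mitotic genes and 0.065 for all genes. Their summed level was 739 and 433 FPKM in knockout libraries 1 and 2 and 759.8 and 489 FPKM in wild-type libraries 1 and 2. By genotype their median log2 change was −0.18, against −0.16 for the 48 mitotic genes. Of the 29, 21 were lower in mean, where 37.6% of all genes were, and 18 (62.1%) within each library number, where 22.2% were. In 1 of the 29 (3.45%) both knockout libraries lay below both wild-type ones, where 10.8% of all genes did. The part of cell cycle phase in the differences of the mitotic genes was not tested.

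**Figure D5:**
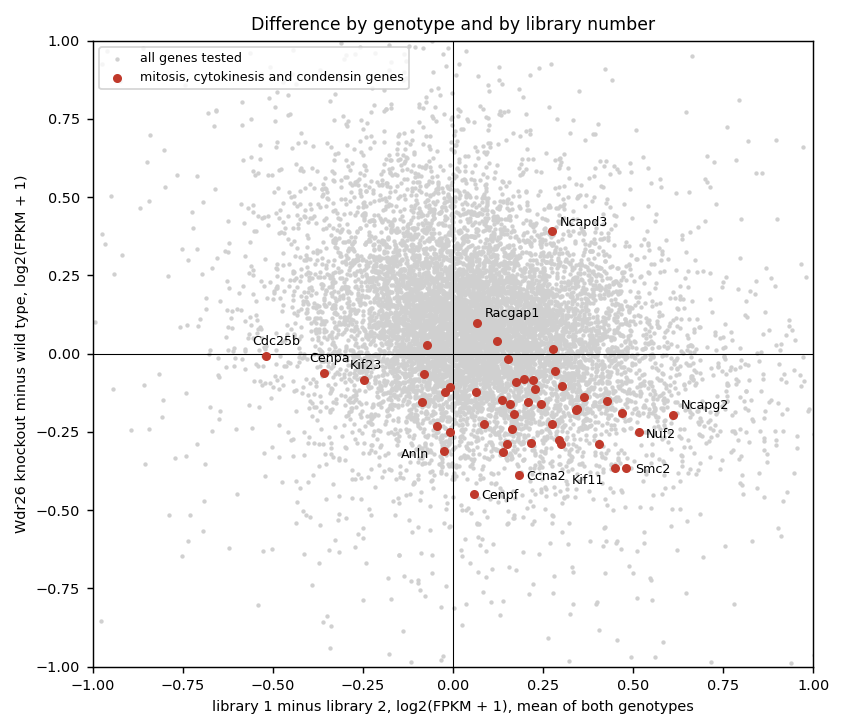
Difference by genotype (vertical axis, knockout minus wild type) against difference by library number (horizontal axis, library 1 minus library 2, mean of both genotypes), both in log2(FPKM + 1), for the 48 genes (red) and all genes tested (grey). Both axes end at 1, which leaves out 149 of the genes tested. Most red points lie below 0 and to the right of 0, with Ncapd3 above and Cdc25b, Cenpa and Kif23 to the left.

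The difference between genotypes was also set beside the promoter letters. Of the 33 genes with homology region letters in a window, both knockout libraries lay below wild type in 10 and above it in 2, and of the 8 without them they lay below in 2 and above in 0. Their median log2 changes were −0.14 and −0.24. With CCAAT, 9 of 28 genes lay below, and without it 3 of 13. Over all genes tested 10.8% lay below and 29.9% above. These groups are small, and no test was made of them. Ncapd3, which lay above, held homology region letters only in a second window inside the gene (chr9:27060166-27060465). Its window at the start of the gene held none. Ccna2, Tpx2, Cdc25c and Smc4, which lay below, had no window and are not counted here.

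Beyond the 48 genes, 150 others of the same pathway passed the filter on low values, out of 151 listed. Again 0 passed limma's adjusted threshold, where 0.0937% of all genes did. At an unadjusted p under 0.05 in limma there were 5 in either direction, where 11.4% of all genes stood. Of the 150, 21 (14%) lay below wild type in both knockout libraries and 15 (10%) above it, against 10.8% and 29.9% of all genes, with a median log2 change of −0.044, which lies between that of the 48 genes and that of all genes. Of 30 other kinetochore and checkpoint genes 24 were lower in mean (median −0.16), 3 of them in both libraries of the knockout, with 0 higher in both. Of 37 other spindle and centrosome genes 11 were lower and 5 higher in both. Among 17 genes of cohesin and separase 3 were lower in both and 0 higher, among 12 mitotic entry regulators 2 were lower and 0 higher, and among 20 genes of the MuvB, E2F and Foxm1 regulators 1 was lower and 1 higher. The 18 genes of the anaphase-promoting complex gave 1 lower and 3 higher (median 0.039), and the 16 tested genes of abscission and the actin ring 0 lower and 6 higher (median 0.053).

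The gene farthest from 0 in all these lists was Diaph1, a formin that builds actin filaments, at 27.2 and 30.9 FPKM in the knockout libraries, against 16.7 and 18.3 FPKM in the wild-type libraries (1.66-fold, log2 change 0.70, SE 0.14, limma adjusted p = 0.180). Its paralog Diaph3 was at the opposite end of the same list, at 2.88 and 2.24 FPKM in knockout and 3.98 and 2.76 FPKM in wild type. Among spindle genes, gamma-tubulin (Tubg1) was highest in change, at 50.6 and 45.4 FPKM in knockout and 38.1 and 35.5 FPKM in wild type, and the centrosomal kinase gene Nek2 lowest, at 9.58 and 8.26 FPKM in knockout and 11.6 and 11.9 FPKM in wild type (limma adjusted p = 0.386 and 0.408). Both had groups that did not overlap.

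Cenpt, which anchors the outer kinetochore, had 11.2 and 8.24 FPKM in knockout and 12.98 and 12.2 FPKM in wild type, and Cenph, a neighbour in the inner kinetochore, 14.96 and 11.2 FPKM in knockout and 13.3 and 10.2 FPKM in wild type. The E2F family gene E2f2 had 23.4 and 15.6 FPKM in knockout and 25.5 and 24.6 FPKM in wild type, and Rbl2, which encodes the p130 subunit of DREAM, 6.28 and 8.5 FPKM in knockout and 6.05 and 5.97 FPKM in wild type. For Rbl2 knockout library 2 was well above the other 3, and for E2f2 it was well below them. Cdkn3, a phosphatase that acts on Cdk1 and Cdk2, had 10.8 and 13.9 FPKM in knockout and 14.04 and 17.6 FPKM in wild type, and Bora, the activator of Aurora A, 10.2 and 17.2 FPKM in knockout and 9.9 and 12.2 FPKM in wild type. Of the anaphase-promoting complex, Anapc16 had 33.8 and 29.1 FPKM in knockout and 28.03 and 24.1 FPKM in wild type, and Anapc13 57.1 and 39.5 FPKM in knockout and 58.6 and 58.9 FPKM in wild type, where knockout library 2 was the lowest. For cohesin, the loader gene Mau2 had 20.3 and 19.4 FPKM in knockout and 20.1 and 17.98 FPKM in wild type, and the subunit gene Stag1 7.1 and 5.36 FPKM in knockout and 8.86 and 6.28 FPKM in wild type. These genes are the ends of their lists by log2 change, and 0 of them passed limma's adjusted threshold with all 4 libraries and no covariate. Without knockout library 1 the log2 change was 0.79 for Diaph1 and −0.65 for E2f2. When knockout library 2 was left out instead, it was 0.61 for Diaph1 and −0.094 for E2f2.

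Some of the 48 values are less certain than others. Another protein-coding gene overlaps 12 of them in the GENCODE annotation of the same assembly, among them Ccna2, Prc1, Nusap1 and Ncapd2, and the sources used here do not say whether counting used strand. Of the 36 genes with no such overlap 11 lay below wild type in both knockout libraries, where 10.8% of all genes tested did. Transcripts assembled from the reads contribute to 16 of the 48, Ncapd3 and Racgap1 included. Of the 32 without such transcripts 12 lay below wild type in both knockout libraries, against the same 10.8%. The 48 genes were moderately expressed, with means between 3.69 and 138 FPKM and a median of 21.8 FPKM, against 11.6 FPKM over all genes tested.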

How the data were processed

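RNA from 4 libraries was sequenced after ribosomal RNA depletion, per the labels, and the authors deposited their values for every gene in 1 table. Its header names no unit, and the deposited values were taken as FPKM because, multiplied by transcript length, they sum to between 1.02e+09 and 1.04e+09 per library, while plain totals run from 621897 to 671964. The submitters' processing notes name TopHat2 and mm10, but not the program that computed FPKM. FPKM carries no counts, so no counting interval is given. Date-like symbols (24) were set back to gene symbols by gene ID. Coordinates came from RefSeq GRCm38.p6.

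Values were converted to log2(FPKM + 1), which understates changes of low genes, and the filter asked for 1 FPKM or more in 2 or more libraries. The genotype fit used limma 3.58.1 (R 4.3.3; trend, no covariates), with Benjamini-Hochberg adjustment and a threshold of 0.05, after the procedure had been tested on simulated data. The genes, the lists and the tests were chosen with earlier results of these data known. All 48 genes are named, as is the gene with the most positive and the most negative change of each other pathway list, Wdr26 as the target, and the ends of each role by library number. Alternatives were other normalizations, filters and pseudocounts, the variance model, a replicate block, libraries left out and globin genes left out.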

Additional observations from a re-analysis of the deposited data

How the results depend on the processing

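The 48 mitotic genes gave 0 adjusted calls under every alternative run except the replicate block, and their median was negative in all of them. The median log2 change was −0.23 with median-centred values, −0.24 with quantile normalization and −0.21 with globin genes left out, and ran from −0.28 to −0.045 with single libraries left out. Relative to the median of all genes it was −0.23 as reported, −0.23 after centring, −0.23 without globin genes, and between −0.32 and −0.15 with a library left out. The number lower in both knockout libraries was 29 after median centring and 28 after quantile normalization, where 20.1% of all genes were in each. With a library left out, the knockout libraries kept lay below the wild-type libraries kept in 18 to 40 genes. This held for 15.4% to 30.8% of all genes, as fewer libraries make the order easier to meet. Single genes changed the sign of their change in 3 of 48 cases under centring, quantile normalization or globin removal, and in 5 to 13 cases with a library left out, the most without knockout library 2; 27 of the 48 kept their sign throughout. Over all genes, 0 passed without the filter on low values (1692 at an unadjusted p under 0.05), 2 with a mean of at least 5 FPKM, 21 with globin genes left out and 3 to 738 with a library left out. The Wdr26 call was lost without the filter (limma adjusted p = 0.0675) and held under the others, with adjusted p of at most 0.0453.

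The labels do not say that the library number pairs the samples. Same-numbered libraries deviated together across genes (Pearson r = 0.606 over 10670 genes, which are not independent), a hint from the data and not from the design. With the library number as a replicate block, 1863 of all genes (17.5%) and 8 of the 48 (Ccna2, Ccnb1, Birc5, Cenpf, Kif11, Anln and Smc2, lower, and Ncapd3, higher) passed limma's adjusted threshold. Of the 1863 genes 475 were lower and 1388 higher, whereas 7 of the 8 were lower. Of the 14 other pathway genes named, 7 passed with the block: Diaph1 and Tubg1, higher, and E2f2, Nek2, Cenpt, Cdkn3 and Anapc13, lower, with limma adjusted p between 1.7e-06 and 0.0463. These 14 were picked as the ends of their lists by log2 change in the same data, so the count says nothing about the lists as wholes. The block leaves a single degree of freedom to each gene's own residuals. The cause of these shifts was not tested. In fits that leave a genotype with 1 library, that library is assumed to vary like the other genotype. A mean of at least 5 FPKM drops Kif20b, which leaves 47 genes.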
